A study of Oryza sativa with 5 samples.

Results

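Bowman-Birk trypsin inhibitor genes were followed through tag libraries from seedlings of 5 rice genotypes. The 5 loci described are BBTI2 (LOC_Os01g03320), BBTI3 (LOC_Os01g03330), BBTI5 (LOC_Os01g03360), BBTI8 (LOC_Os01g03680) and BBTI12 (LOC_Os01g04050), all on chromosome 1. They are the Bowman-Birk loci for which the study designed PCR primers for expression analysis, and they are 5 of the 22546 genes counted in the series. The gene descriptions call 9 genes Bowman-Birk type bran trypsin inhibitor precursors, so 4 further genes of the family were available beside them: BBTI1 (LOC_Os01g03310), BBTI4 (LOC_Os01g03340) and BBTI7 (LOC_Os01g03390) on chromosome 1, and BBTI13 (LOC_Os03g60840) on chromosome 3. All 9 had tags in every library. The study reports that quantitative RT-PCR of selected genes bore out its tag data, with different effects of OsHDT1 in the MH63 background. Its main text does not name those genes. The 5 loci were selected on their tag counts in FU, FR, SY63 and the parents, that is, with the differences between these libraries already known, so every value of theirs is given as a description and no test is applied to them as a group.

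There was 1 library per genotype, all from seedlings aged 15 days and kept in a daily cycle of 15 h light and 9 h dark. FU is the hybrid SY63 with an overexpression transgene for OsHDT1 under the maize ubiquitin promoter, and the sample labels write its code as FV. FR is the hybrid with an OsHDT1 RNAi transgene under the CaMV 35S promoter. SY63 is the hybrid without a transgene, and MH63 and ZS97 are its male and female parent, both indica varieties. Both transgenes had been introduced into MH63 and reached the hybrid by pollinating ZS97, and the sample labels do not say which transgenic line gave either library. OsHDT1 (LOC_Os05g51830) encodes a plant-specific histone deacetylase of the HD2 type. The libraries held between 4821637 and 5022081 clean tags, of which between 3396913 and 3712043 lay on genes. OsHDT1 itself had 7590 tags in FU, 142 tags in FR, 428 tags in SY63, 2633 tags in MH63 and 304 tags in ZS97. Its log2 ratio to SY63 was 4.16 in FU and -1.64 in FR, in the directions of the labels. Between libraries without a transgene, OsHDT1 was lower in SY63 than in MH63, with a log2 ratio of -2.57. The study reports no clear OsHDT1 difference between MH63 and SY63 by quantitative RT-PCR or Western blot, in assays separate from these libraries.

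Bowman-Birk inhibitors are small secreted proteins held together by many disulfide bridges. An exposed loop sits in the active site of a serine protease such as trypsin or chymotrypsin and blocks it. In rice they were first isolated from bran, and transcripts of several family members are known to accumulate in leaves after wounding and after treatment with jasmonate, the hormone of wound and insect defence. The chromosome 1 genes form a cluster of related copies.

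The primers designed for these loci are shown because they are the sequences that the study gives for each locus. Whether each primer is specific to its locus, in a family of related copies, was not tested. Each is written 5′ to 3′ in lower case, with capitals for CATG, the site of the enzyme NlaIII at which the tag assay cuts cDNA. Of the 10 primers, only the forward primer of BBTI3 contains that site.
BBTI2 forward: tccaaggctccaagcaaagta
BBTI2 reverse: cgcctgtttgtttccatcg
BBTI3 forward: tgcacacCATGcactcagaa
BBTI3 reverse: tctggatgatcgaacgaacg
BBTI5 forward: gcagcttttgtgcatcttgc
BBTI5 reverse: ccacgcttgcattgcatatt
BBTI8 forward: tgtcacaaccagccagcttaa
BBTI8 reverse: ttaacgctgatcgagcggt
BBTI12 forward: tgttcaagtgcaccgacacct
BBTI12 reverse: agcaatggctcgcgttcat

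Levels are given in TPM, here tags per 1000000 clean tags of the library. Each transcript gives its tag at the CATG nearest its 3′ end, so TPM values need no correction for transcript length and can be set side by side between genes. Tags that matched several genes had been removed, so counts of near-identical copies within the family are uncertain. Tags were matched to japonica sequences, whereas both parents are indica varieties. A sequence difference from the reference could remove tags in a parent or a hybrid, and this was not tested. A difference between libraries was called when the exact tag-count test of Audic and Claverie gave a false discovery rate of at most 0.001 over all genes and the log2 ratio of TPM was at least 1 in size. There was no replicate of any genotype. The calls therefore compare libraries and not genotypes, and the 95% intervals of levels and ratios cover counting error only. In whole seedlings, fewer cells that express a gene and less RNA per cell cannot be told apart.

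BBTI2 had the widest change between the transgenic hybrids among the 9 genes. It had 467 TPM in FU (95% interval 448 to 487), 31.9 TPM in FR (27.2 to 37.3), 53.5 TPM in SY63 (47.2 to 60.4), 70.9 TPM in MH63 (63.7 to 78.6) and 182 TPM in ZS97 (171 to 195). The order of the libraries was FU, ZS97, MH63, SY63 and FR, and every neighbouring pair in that order was separated beyond counting error. By abundance BBTI2 ranked 150 among the genes of FU, 4046 in FR and 2315 in SY63.

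BBTI3, the neighbour of BBTI2 by locus number, was the least abundant of the 5 loci in FU. It had 30.9 TPM in FU (95% interval 26.1 to 36.3), 8.98 TPM in FR (6.55 to 12.0), 6.38 TPM in SY63 (4.34 to 9.06), 26.1 TPM in MH63 (21.8 to 31.0) and 8.27 TPM in ZS97 (5.94 to 11.2). FU and MH63 formed a high pair whose log2 difference, 0.24, had an interval of -0.10 to 0.59. FR, ZS97 and SY63 formed a low group in which neighbouring libraries were not separated beyond counting error.

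BBTI5 stood high in FU and low in MH63. Its level was 334 TPM in FU (95% interval 318 to 351), 79.4 TPM in FR (71.8 to 87.6), 72.5 TPM in SY63 (65.1 to 80.5), 28.7 TPM in MH63 (24.2 to 33.8) and 73.8 TPM in ZS97 (66.5 to 81.8). The values of FR, ZS97 and SY63 lay between these extremes, and neighbouring libraries among them were not separated beyond counting error.

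BBTI8 was nearly absent from both parents and present in every hybrid. It had 46.3 TPM in FU (95% interval 40.4 to 52.7), 8.38 TPM in FR (6.04 to 11.3), 27.4 TPM in SY63 (22.9 to 32.5), 1.39 TPM in MH63 (0.560 to 2.87) and 0.605 TPM in ZS97 (0.125 to 1.77). These were 223 tags in FU, 42 tags in FR, 133 tags in SY63, 7 tags in MH63 and 3 tags in ZS97. The 3 hybrid libraries were separated from each other and from the parents, whereas the parents were not separated from each other.

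BBTI12 was high in FU and level in the other libraries. It had 300 TPM in FU (95% interval 284 to 316), 79.6 TPM in FR (72.0 to 87.8), 74.9 TPM in SY63 (67.4 to 83.1), 72.1 TPM in MH63 (64.8 to 79.9) and 78.7 TPM in ZS97 (71.1 to 86.9). Apart from FU, neighbouring libraries in its order were not separated beyond counting error.

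**Figure D1:**
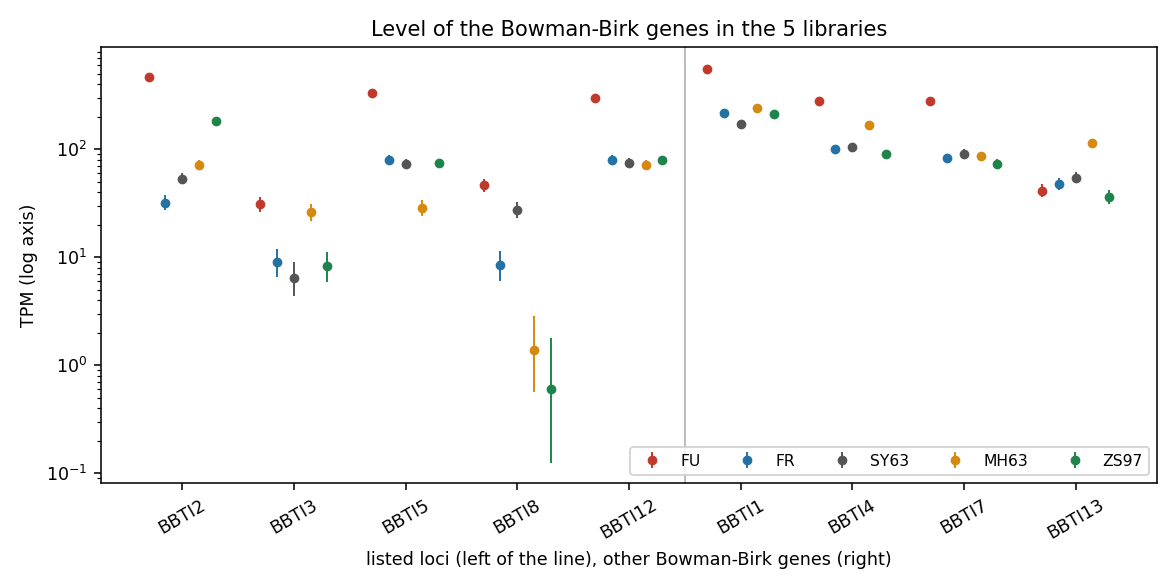
TPM of the 9 Bowman-Birk genes (vertical log axis) in FU, FR, SY63, MH63 and ZS97, with the 5 listed loci left of the grey line; points are single libraries and bars are 95% counting intervals. FU is the highest library for every gene but BBTI13, and BBTI8 falls to 1.39 TPM in MH63 and 0.605 TPM in ZS97.

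The comparison of FU with SY63 asks which transcripts differ in the hybrid library with OsHDT1 overexpressed. The study used hybrids from transgene-negative plants as controls, but none is among the libraries. For FU and FR, OsHDT1 level and transformation history therefore cannot be told apart. Of the 5 loci, 4 were called higher in FU and none lower; over all genes, 3.0% of 21314 were called in this comparison, 2.19% as higher and 0.812% as lower. BBTI2 was 8.72-fold higher in FU, a log2 ratio of 3.12 (95% interval 2.94 to 3.32). BBTI3 was 4.84-fold higher, with a log2 ratio of 2.28 (1.71 to 2.88). BBTI5 was 4.61-fold higher, with a log2 ratio of 2.20 (2.04 to 2.37), and BBTI12 was 4.0-fold higher, with a log2 ratio of 2.00 (1.83 to 2.17). BBTI8 was not called, with a log2 ratio of 0.76 whose interval, 0.44 to 1.08, excludes 0 and reaches past the threshold of 1. The median log2 ratio was 2.20 over the 5 loci and 0.06 over all genes tested. These contrasts chose the loci, so the counts and the median describe them and nothing more is read from them.

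The 4 genes of the family that were not on the list had a median log2 ratio of FU to SY63 of 1.53. BBTI1 had 554 TPM in FU, 215 TPM in FR and 170 TPM in SY63, and BBTI4 had 280 TPM in FU, 99.8 TPM in FR and 104 TPM in SY63. BBTI7 had 282 TPM in FU, 82.2 TPM in FR and 91.2 TPM in SY63. These 3 chromosome 1 genes were called higher in FU, with log2 ratios to SY63 of 1.71 for BBTI1, 1.43 for BBTI4 and 1.63 for BBTI7. BBTI13, the only member on another chromosome, had 41.3 TPM in FU, 47.7 TPM in FR and 54.6 TPM in SY63. It was not called, and its log2 ratio of FU to SY63 was -0.40 (95% interval -0.68 to -0.13). Of all 9 genes, 7 were thus called higher in FU. When a biological coefficient of variation of 0.2 was assumed for every gene in edgeR's exact test, 2 of these 7, BBTI2 and BBTI5, were still called.

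FR, with reduced OsHDT1, was set against the same SY63 library, so the values of FU and of FR over SY63 share their denominator. Of the 5 loci, 1 was called lower in FR and none higher, in a comparison that called 1.16% of 21024 genes, 0.585% as higher and 0.576% as lower. That gene was BBTI8, at 8.38 TPM in FR and 27.4 TPM in SY63, with a log2 ratio of -1.71 (95% interval -2.24 to -1.20). It was not called with the assumed coefficient of variation of 0.2. BBTI2 had a log2 ratio of -0.75 and was not called; its interval, -1.04 to -0.46, excludes 0 and just reaches the threshold. The other ratios of FR to SY63 were 0.49 for BBTI3, 0.13 for BBTI5 and 0.09 for BBTI12, each with an interval that includes 0. Among the genes off the list the ratios ran between -0.19 for BBTI13 and 0.34 for BBTI1, and none was called. The median log2 ratio was 0.09 over the 5 loci and -0.05 over all genes tested.

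**Figure D2:**
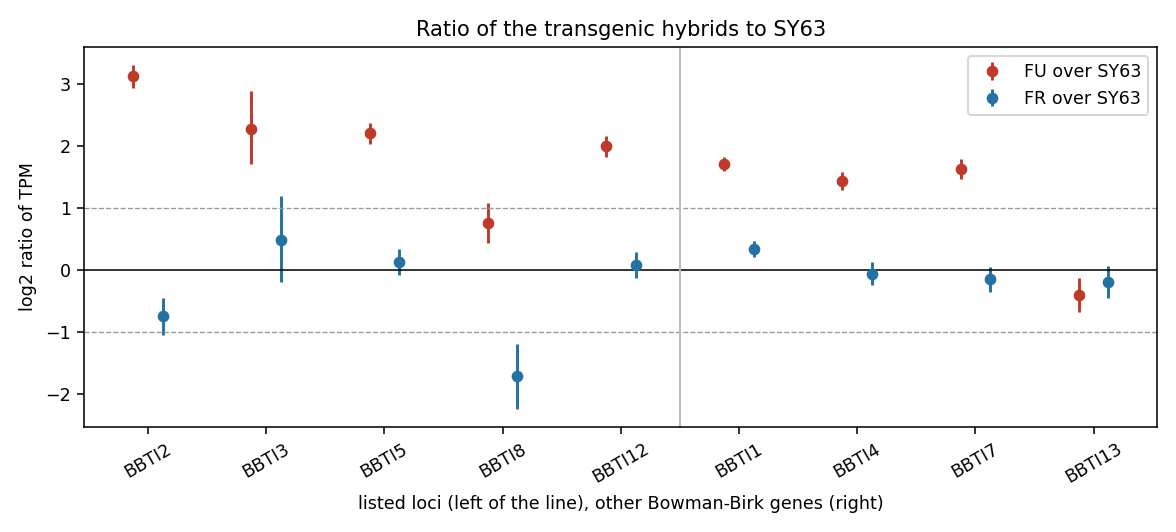
Log2 ratio of TPM of FU over SY63 (red) and FR over SY63 (blue) for the 9 Bowman-Birk genes; bars are 95% counting intervals, dashed lines mark log2 ratios of 1 and -1, and both colours share the SY63 library. For FU the values reach 3.12 at BBTI2, while for FR BBTI8 alone passes the lower line, at -1.71.

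Set directly against each other, FU and FR were separated at every listed locus. All 5 loci were called higher in FU than in FR, where 3.22% of 21242 genes were called, 2.54% as higher and 0.683% as lower. BBTI2 was 14.6-fold higher in FU than in FR, with a log2 ratio of 3.87 (95% interval 3.64 to 4.11). BBTI8 followed with a log2 ratio of 2.46 (1.98 to 2.98), then BBTI5 with 2.07 (1.91 to 2.23), BBTI12 with 1.91 (1.75 to 2.08) and BBTI3 with 1.78 (1.29 to 2.30). Over all 9 genes 8 were called higher, BBTI13 being the exception at -0.21. With the assumed coefficient of variation of 0.2, 2 of the 8 calls held, those of BBTI2 and BBTI8. Over all genes 539 were called higher and 145 lower in FU than in FR, and 411 higher and 197 lower when the libraries were scaled by TMM factors. All 8 calls of Bowman-Birk genes held under that scaling.

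Summed over the family, the tags of the 9 genes came to 2335 TPM in FU, 653 TPM in FR, 654 TPM in SY63, 806 TPM in MH63 and 754 TPM in ZS97. The sum was 3.57-fold higher in FU than in SY63, with a log2 ratio of 1.84 (95% interval 1.78 to 1.89). In FR the log2 ratio of the sum to SY63 was -0.002 (-0.07 to 0.07). BBTI2 made up 24.6% of the difference between FU and SY63, BBTI1 22.9%, BBTI5 15.6%, BBTI12 13.4%, BBTI7 11.3% and BBTI4 10.5%. The 3 remaining genes, BBTI3, BBTI8 and BBTI13, contributed 1.46%, 1.12% and -0.79%.

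The makeup of the family differed between libraries. BBTI2 took 19.99% of the family's tags in FU, 4.89% in FR, 8.19% in SY63, 8.79% in MH63 and 24.2% in ZS97. BBTI1, the most abundant member in each of the 5 libraries, took 23.7% in FU, 32.9% in FR, 25.9% in SY63, 29.9% in MH63 and 28.0% in ZS97. BBTI13 held 1.77% in FU and 14.1% in MH63.

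**Figure D3:**
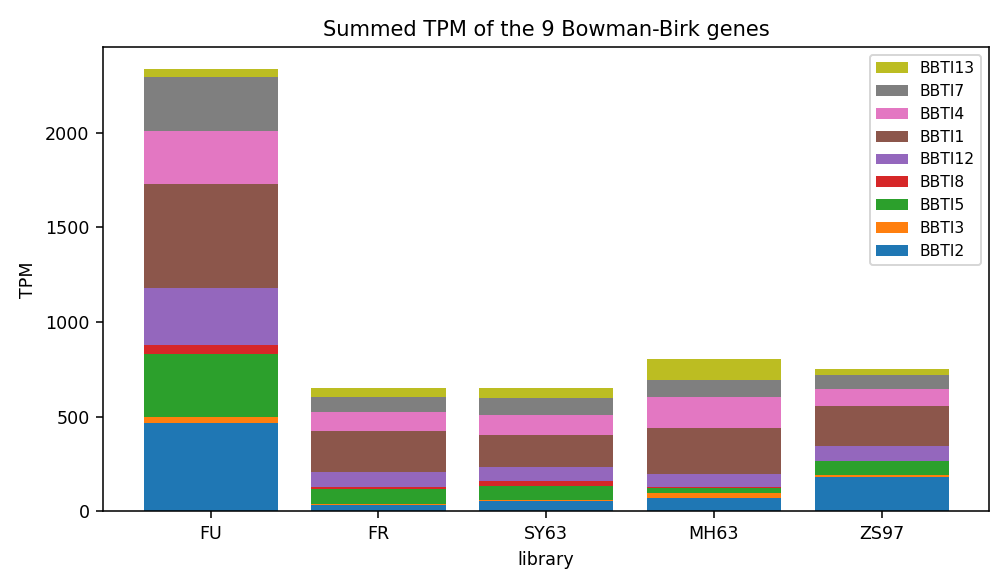
Stacked TPM of the 9 Bowman-Birk genes in the FU, FR, SY63, MH63 and ZS97 libraries; each colour is 1 gene and the vertical axis starts at 0. The FU bar reaches 2335 TPM and the other 4 lie between 653 and 806 TPM.

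Comparison of SY63 with its parents asks where the hybrid departs from the level midway between them. Among the 5 loci 1 was called above the mid-parent and 2 below, while over all genes 6.34% of 21504 were called, 2.85% above and 3.49% below. BBTI8 was above, at 27.4 TPM in SY63 and 1.00 TPM in the mid-parent, a log2 ratio of 4.78 (95% interval 3.85 to 5.87). BBTI2 was below, at 53.5 TPM in SY63 and 127 TPM in the mid-parent, a log2 ratio of -1.24 (-1.44 to -1.04). BBTI3 was below as well, at 6.38 TPM in SY63 and 17.2 TPM in the mid-parent, a log2 ratio of -1.43 (-2.03 to -0.88). BBTI5 had a ratio of 0.50 and BBTI12 a ratio of -0.01, and neither was called. None of the 4 other family members was called. The BBTI8 call was the 1 of the 3 that held with the assumed coefficient of variation of 0.2. Over all genes 613 were called above and 750 below the mid-parent, but 784 above and 512 below a geometric mid-parent.

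The transgenic hybrids can be placed against the same parents. FU lay above both parents for 8 of the 9 genes, where 31.8% of 16789 genes with at least 20 tags over FU and the parents did so, and between them for BBTI13. The 8 include BBTI3, for which FU was not separated from MH63 beyond counting error. FR lay above both parents for 3 genes, beside 24.9% of all such genes, but of the 3 only BBTI8 was separated from the higher parent. FR lay below both for BBTI2, which was separated from the lower parent, beside 32.7% of all such genes. SY63 lay above both for BBTI8 and BBTI7, beside 26.4% of all such genes, and BBTI7 was not separated from MH63. It lay below both for BBTI1, BBTI2 and BBTI3, beside 31.0% of all such genes, and BBTI3 was not separated from ZS97. The log2 ratio of BBTI2 to the mid-parent was 1.88 in FU, -1.99 in FR and -1.24 in SY63. That of BBTI8 was 5.53 in FU, 3.07 in FR and 4.78 in SY63, so this gene was above the mid-parent in all 3 hybrids. BBTI5 stood at 2.70 in FU, 0.63 in FR and 0.50 in SY63. These positions are given without a test.

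**Figure D4:**
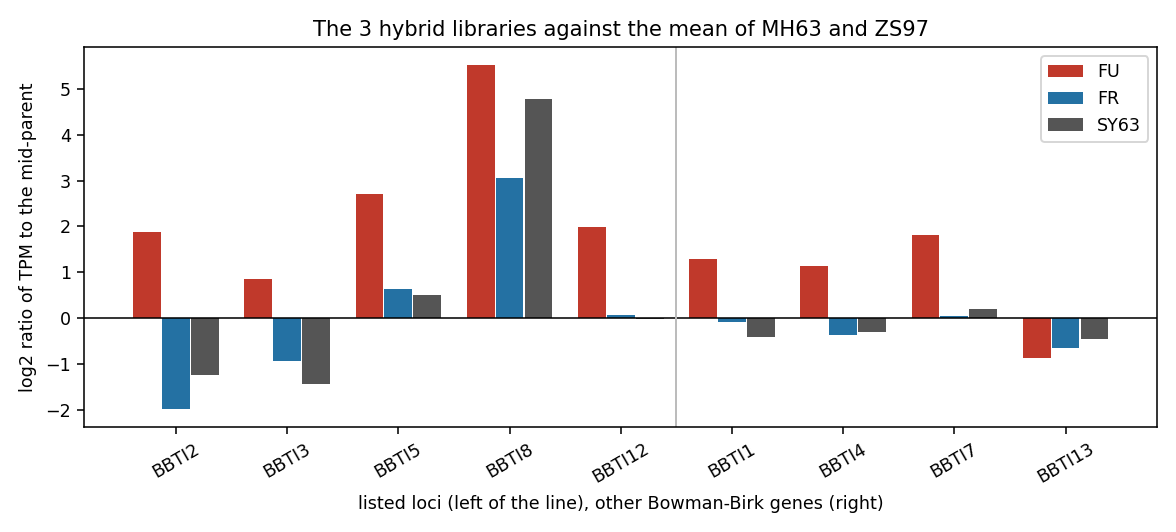
Log2 ratio of TPM to the mean of MH63 and ZS97 for the 9 Bowman-Birk genes in FU, FR and SY63; bars are single libraries without error bars and start at 0. BBTI8 is above the mid-parent in all 3 hybrids, and BBTI2 is at 1.88 in FU, -1.99 in FR and -1.24 in SY63.

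Against MH63 alone, SY63 was called higher for BBTI8 and BBTI5 and lower for BBTI3, 3 of the 5 loci, in a comparison that called 16.5% of 20948 genes, 7.1% as higher and 9.37% as lower. The log2 ratio was 4.30 for BBTI8 (95% interval 3.21 to 5.64), 1.34 for BBTI5 (1.05 to 1.63) and -2.03 for BBTI3 (-2.65 to -1.46). Off the list, BBTI13 was called lower in SY63, at 54.6 TPM, than in MH63, at 113 TPM. Its log2 ratio of -1.06 no longer passed the threshold when the libraries were scaled by TMM factors, at -0.91. Of the 4 calls in the family, that of BBTI8 held with the assumed coefficient of variation of 0.2. Against ZS97, SY63 was called higher for BBTI8 and lower for BBTI2, 2 of the 5 loci, where 3.95% of 20783 genes were called, 2.88% as higher and 1.07% as lower. BBTI8 was 45.2-fold higher in SY63, a log2 ratio of 5.50 whose interval of 3.92 to 7.80 is wide because ZS97 had 3 tags. BBTI2 had a log2 ratio of -1.77 (-1.97 to -1.57). With the assumed coefficient of variation BBTI8 kept its call and BBTI2 did not.

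The parents differed from each other at 3 of the 5 loci, in a comparison that called 17.5% of 20560 genes, 10.7% as higher and 6.86% as lower. MH63 was lower than ZS97 for BBTI2, with a log2 ratio of -1.36 (95% interval -1.54 to -1.18), and for BBTI5, also with -1.36 (-1.65 to -1.08). It was higher for BBTI3, with a log2 ratio of 1.66 (1.14 to 2.20). Among the other members BBTI13 was higher in MH63, with a log2 ratio of 1.64. None of these 4 calls held with the assumed coefficient of variation of 0.2. BBTI12 had a ratio of -0.13 (-0.34 to 0.08), and the ratio of BBTI8, 1.20, rested on 7 tags in MH63 and 3 tags in ZS97 and had an interval of -0.93 to 3.79.

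The MH63 library stood apart from the rest in a marker list of green tissue. The summed level of the 17 chlorophyll A-B binding protein genes was 5004 TPM in MH63 and between 10928 and 14796 TPM in the other libraries. The 4 genes for the small chain of rubisco, the carbon-fixing enzyme, summed to between 41191 and 58098 TPM over the 5 libraries. The only seed storage gene of the glutelin and prolamin list, LOC_Os10g26060, had between 5.81 and 16.7 TPM. Of these lists the glutelin gene was called lower in FU, at 5.81 TPM, than in SY63, at 16.7 TPM, 1 chlorophyll A-B binding gene was called lower in FR than in SY63, and no other gene was called in either transgenic hybrid against SY63. All 3 lists had tags from every listed gene in every library. The part of these differences in the results on the Bowman-Birk genes was not tested. TMM scaling shifted the median log2 ratio of all genes by 0.14 for SY63 over MH63 and by -0.19 for MH63 over ZS97. It turned 1487 genes higher and 1962 lower in SY63 than in MH63 into 1861 higher and 1461 lower, and 2192 higher and 1411 lower in MH63 than in ZS97 into 1568 higher and 1873 lower. The calls of the 5 loci held under it.

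By locus number, 8 of the 9 genes lie in a stretch of chromosome 1 that holds 28 other counted genes between its outermost Bowman-Birk loci. BBTI1 to BBTI5 occupy ranks 21 to 25 in a window of 76 genes, BBTI7 rank 27, BBTI8 rank 37 and BBTI12 rank 56. None of the 25 tested genes lying among them was called in FU against SY63, and none of the 39 tested among the 20 genes on each side. At the 3.0% called over all genes, a count of 0 in lists of this size is near the background. With at least 20 tags over FU and SY63, the median log2 ratio of FU to SY63 was 0.10 for 20 genes among them and -0.10 for 28 flanking genes, beside 0.05 for 15807 genes of the whole table. Of these 48 genes of the window, 4 were at least 2-fold higher and 2 at least 2-fold lower in FU. By fold alone and without a minimum of tags, 3258 of all 21314 genes tested were higher and 2111 lower. The highest of the 48, LOC_Os01g03130, is described as an expressed protein and was named after its values were seen. It rested on 20 tags in FU and 2 tags in SY63 and was not called.

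**Figure D5:**
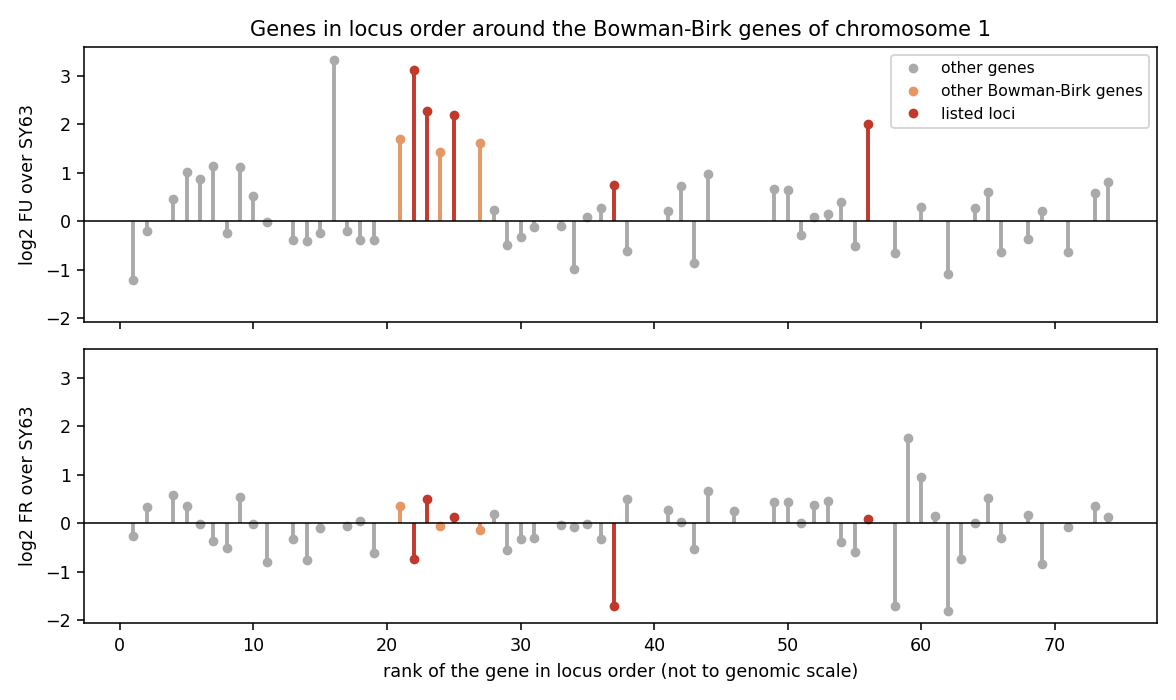
Log2 ratio of FU over SY63 (top) and of FR over SY63 (bottom) for genes of chromosome 1 in locus order, for genes with at least 20 tags over the libraries compared; the horizontal axis is rank, not distance. In FU 7 of the 8 Bowman-Birk genes here stand above 1 and BBTI8 is at 0.76; the tallest grey bar is LOC_Os01g03130, at 20 and 2 tags.

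Other protease inhibitors and the jasmonate pathway give the setting of the family. Of 7 tested cysteine protease inhibitors, which block papain-like proteases, none was called in FU against SY63, where 3.0% of all genes were called, and none in FR against SY63, where 1.16% were. For the 6 with at least 20 tags over both libraries the median log2 ratio of FU to SY63 was 0.21. Among those with at least 20 tags in each of FU and SY63, the largest in size were 0.40 for LOC_Os04g28250 and -0.39 for LOC_Os03g31510. Among 5 genes found by the words for other serine protease inhibitors none was called either. These words missed the inhibitor I family genes LOC_Os12g36210 and LOC_Os12g36220, annotated as serine protease inhibitors and named after their values were seen, which were both called higher in FU, with log2 ratios to SY63 of 1.33 and 1.54. The serpins LOC_Os03g41419 and LOC_Os03g41438 had log2 ratios of -0.11 and 0.01.

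Genes described as lipoxygenases, allene oxide enzymes, oxophytodienoate reductases, ZIM domain proteins or jasmonate genes were taken as the jasmonate pathway. The list was made by name, so whether each gene serves jasmonate synthesis was not tested. Of 26 tested, 4 were called higher and none lower in FU against SY63, beside 2.19% higher and 0.812% lower over all genes. The median log2 ratio was 0.84 over the 20 of them with at least 20 tags in these libraries together, beside 0.05 over all such genes. In FR against SY63, 2 of 25 were called lower and none higher, beside 0.576% lower and 0.585% higher over all genes. Jasmonate synthesis begins when a plastid lipoxygenase oxidises linolenic acid. LOC_Os12g37260, a chloroplast lipoxygenase, had 475 TPM in FU, 27.5 TPM in FR, 58.3 TPM in SY63, 6.57 TPM in MH63 and 51.6 TPM in ZS97, with log2 ratios to SY63 of 3.03 in FU and -1.08 in FR. A second lipoxygenase, LOC_Os03g52860, has a description that names no compartment. It had 177 TPM in FU, 8.78 TPM in FR, 28.0 TPM in SY63, 0.996 TPM in MH63 and 0 TPM in ZS97. The parental values rested on 5 tags in MH63 and 0 tags in ZS97. Its log2 ratios to SY63 were 2.66 in FU and -1.67 in FR. These 2 lipoxygenases were the genes called lower in FR. The other 2 called higher in FU, named after their values were seen, were the 12-oxophytodienoate reductase LOC_Os06g11210, at 3.23, and the allene oxide cyclase LOC_Os03g32314, at 1.07. The ratio of LOC_Os06g11210 rested on 65 tags in FU and only 7 tags in SY63. That of LOC_Os03g32314 rested on 415 tags in FU and 199 tags in SY63. The summed level of the list was 1014 TPM in FU, 341 TPM in FR, 366 TPM in SY63, 421 TPM in MH63 and 438 TPM in ZS97.

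Genes with the most similar profile were sought among 15367 genes with at least 20 tags in some library. Likeness was the root mean square difference of log2(TPM + 1) over the 5 libraries after each gene was centred on its own mean. For BBTI2 the nearest were a beta-expansin (LOC_Os09g29690, difference 0.43), a carboxyl methyltransferase (LOC_Os06g20960, 0.53) and the 12-oxophytodienoate reductase LOC_Os06g11210 (0.59). For BBTI3 they were LOC_Os03g29340 of unknown function (0.14), the histidine-containing phosphotransfer protein LOC_Os05g09410 (0.19) and the pathogen-related protein LOC_Os01g53090 (0.21). Those of BBTI5 were LOC_Os07g34260 of the chalcone and stilbene synthases (0.21), the protein kinase LOC_Os05g47750 (0.28) and the zinc-finger protein LOC_Os09g26780 (0.30).

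The nearest to BBTI8 were a pyridoxal-dependent decarboxylase (LOC_Os04g01690, 0.48), the hypothetical protein LOC_Os11g10590 (0.54) and a peroxidase (LOC_Os04g59260, 0.58). BBTI12 was closest to another member of its family, BBTI7 (0.17), followed by a cupin domain protein (LOC_Os02g32980, 0.17) and a caleosin (LOC_Os04g43200, 0.17). For the other 4 loci the closest Bowman-Birk gene ranked 51 (BBTI12, for BBTI2), 64 (BBTI4, for BBTI3), 53 (BBTI12, for BBTI5) and 248 (BBTI5, for BBTI8). Some of the nearest genes had few tags. LOC_Os06g20960, near BBTI2, had 6.22 TPM in FU and 0 TPM in FR and MH63. Near BBTI8, LOC_Os04g01690 had 0 TPM in both parents and LOC_Os11g10590 had 0 TPM in MH63. At such levels the 1 added to each TPM before the log narrows differences between libraries. With 5 libraries many genes can share a profile, and all the matches are a description.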

How the data were processed

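Tag libraries of 5 genotypes were analysed, 1 library each. The authors cut cDNA with NlaIII, sequenced tags on an Illumina instrument, assigned clean tags to rice cDNAs of the MSU annotation (1 mismatch allowed), discarded tags shared by several genes and deposited raw tag counts per gene. The deposited TPM values are these counts per 1000000 clean tags, as scaled by the authors, with 0.01 for 0. These cDNAs are of japonica rice, and a tag outside the mismatch limit is not in the counts. The tables' log2 ratios, p-values and false discovery rates, which hold the authors' own comparisons, were not used, nor was a table of tags matched to the genome.

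The 7 comparisons used the exact 2-sided Audic and Claverie test on counts with Benjamini-Hochberg adjustment over all genes with a tag in either library, in Python 3.11.15 and SciPy 1.17.1. The mid-parent was tested as the summed parental counts. Calls needed a false discovery rate no higher than 0.001 and a log2 ratio of 1 or more in size. Intervals are exact at 95%. For a count of 0 a fixed floor of 3 tags is given, between 0.597 and 0.622 TPM, which is not the limit of these exact intervals. Alternatives were TMM factors (edgeR 4.0.16), DESeq2 1.42.0 size factors, 1 added to every TPM, a minimum of 10 tags, the fold threshold alone and edgeR's exact test with an assumed coefficient of variation of 0.2. No dispersion could be estimated, so no quasi-likelihood or DESeq2 test was fitted.

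Named genes are the 5 loci, the other genes described as Bowman-Birk, OsHDT1, the 3 nearest profiles per locus, and 2 genes per context list with the largest ratios of FU to SY63 among those with at least 20 tags in both; further names are marked. Lists came from words in the deposited descriptions. Members and lists were chosen with earlier results of these data known.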

Additional observations from a re-analysis of the deposited data

How the results depend on the processing

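Scaling by TMM factors or DESeq2 size factors, adding 1 to every TPM, a minimum of 10 tags, the fold threshold alone and a geometric mid-parent left each count of called Bowman-Birk genes within 1.5 times its value. The assumed coefficient of variation of 0.2 lowered every count. Under it, of all 9 genes 2 were called in FU against SY63, 0 in FR against SY63, 2 in FU against FR, 1 in SY63 against MH63, 1 in SY63 against ZS97, 0 in MH63 against ZS97 and 1 in SY63 against the mid-parent; for the 5 listed loci the counts were 2, 0, 2, 1, 1, 0 and 1. Over all genes this setting called 33 higher and 3 lower in FU against SY63, where the test of counting error called 467 and 173. In FR against SY63 it called 4 higher and 0 lower, beside 123 and 121. For FU against FR it called 33 and 3, beside 539 and 145. For SY63 against MH63 the counts were 407 and 286, beside 1487 and 1962. SY63 against ZS97 had 128 and 4, beside 598 and 222. MH63 against ZS97 had 524 and 424, beside 2192 and 1411. For SY63 against the mid-parent they were 147 and 81, beside 613 and 750. Of 387 alternative ratios of single genes, 360 kept their direction and their status as called or not called, 24 lost a call and 1 gained it. The minimum of 10 tags, the fold threshold alone and the assumed coefficient of variation leave the ratio itself unchanged. Under these settings only a call could move, so much of the agreement was fixed in advance. BBTI12 in SY63 against the mid-parent changed sign, at 0.0359 with TMM factors and 0.0382 with DESeq2 size factors against -0.0083, and was never called. No paired analysis was possible because each genotype has 1 library. Depth limits BBTI8 in the parents, at 7 tags in MH63 and 3 tags in ZS97, and BBTI3 in SY63, at 31 tags; intervals do not cover variation between plants.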

Other observations

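Of the 16 genes annotated with serine-type endopeptidase inhibitor activity in the deposited tables, 8 are Bowman-Birk genes, all 5 listed loci among them. The other 8 include genes described as ethylene receptors and as an expressed protein, so not all are described as protease inhibitors. Among these 8 genes, 2 were called higher in FU against SY63 and none lower, beside 2.19% higher and 0.812% lower over all genes. Both are inhibitor I family genes, which the word list for serine protease inhibitors did not pick up, and they are named here after their values were seen. LOC_Os12g36210 had 289 TPM in FU, 95.0 TPM in FR, 115 TPM in SY63, 2.19 TPM in MH63 and 35.1 TPM in ZS97, with a log2 ratio of FU to SY63 of 1.33. LOC_Os12g36220 had 369 TPM in FU, 77.8 TPM in FR, 127 TPM in SY63, 2.79 TPM in MH63 and 20.8 TPM in ZS97, with a log2 ratio of 1.54. For each of the pair FU was the highest library and MH63 the lowest. Another inhibitor I gene, LOC_Os01g42860, likewise named with its values in view, had 18 tags in FU, 5 tags in FR, 9 tags in SY63, 136 tags in MH63 and 10 tags in ZS97, with MH63 highest, and was not called in FU against SY63.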
